A study of Homo sapiens with 20 samples.

Results

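WWTR1, which encodes the Hippo pathway effector TAZ, and CAMTA1, which encodes a calmodulin-binding transcription activator, are the partner genes of the TAZ-CAMTA1 fusion, and both exist in some of these cells as chromosomal copies and as part of a retroviral vector. Accessible chromatin at the 2 genes was described from every peak that overlapped a 240-kb window around WWTR1 on chromosome 3 or a 1005-kb window around CAMTA1 on chromosome 1, in hg19, the build of the peak lists. The windows held 1260 of the 1407450 peaks of the 7 lists, with 372 at WWTR1 and 888 at CAMTA1. No measured value chose these peaks. At the lower edge of the WWTR1 window 6 peaks lay across the boundary, with areas between 557 and 4607, and the nearest peak wholly outside was 145 bp away, in the TFE3 list, with an area of 662. The nearest peak wholly inside that edge, in the TAZ4SA list, had an area of 64.8. No peak lay across the other 3 edges.

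The cells were SW872, a human liposarcoma cell line. Each line consisted of pooled populations transduced with a pBabeNeo retrovirus and selected with G418, so that all 7 share the vector backbone and the selection. Per the study's methods, the biological replicates for sequencing came from separate transductions. The inserts were none (empty vector, EV), TAZ4SA (TAZ with serine-to-alanine substitutions that keep it active), full-length CAMTA1, TAZ-CAMTA1 (TC), YAP5SA (the equivalent activated form of the TAZ paralog YAP), full-length TFE3 and YAP-TFE3 (YT). The sample titles call the YT line Yap5SA-TFE3, and the study's methods name the insert YAP-TFE3. ATAC-seq, in which a transposase cuts and tags open DNA, was done on 3 libraries per line and on 2 for TFE3, 20 in all, and 1 peak list per line was analysed here. A list does not say how its libraries contributed. There is therefore no replicate error for any value below, no difference between lists was tested, and the read depth behind each list is unknown.

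TAZ has no DNA-binding domain of its own and reaches DNA mainly through the TEAD factors. CAMTA1 has a DNA-binding domain near its amino terminus, and proteins of its family are known to bind short GC-rich sequences. In the fusion, the amino-terminal, TEAD-binding part of TAZ is joined to the carboxy-terminal part of CAMTA1, which holds its transactivation domain. TC is the hallmark of epithelioid hemangioendothelioma, a vascular sarcoma. The cDNA in a vector has no introns, so a DNA fragment that comes from it can align to the genome only at exons. Peaks over coding exons that occur only in the lists of vectors with that gene are therefore what an accessible insert would leave at the chromosomal locus. TAZ4SA and TC are the vectors with WWTR1 sequence, and CAMTA1 and TC those with CAMTA1 sequence.

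The strongest site of each window lay at the distance of zero by which all positions are given here, and it stood in all 7 lists. Sequences upstream of annotated transcription starts were taken from RefSeq (GRCh38.p14), in which WWTR1 has 2 starts and CAMTA1 has 5. They are shown because peaks lay at the matching distances along both genes, as described further on, and because they differ in the letters that the encoded proteins or their partners read. Bases are lower case, and capitals mark, on either strand, the TEAD sequence GGAATG, the E-box CACGTG that TFE3 and its relatives read, or CGCG, the core that CAMTA proteins read. Stretches that the annotation counts as exons of any transcript were left out, which removed all 250 bases before the main WWTR1 start.
CAMTA1 main start, 250 bases, plus strand, chr1:6785204-6785453: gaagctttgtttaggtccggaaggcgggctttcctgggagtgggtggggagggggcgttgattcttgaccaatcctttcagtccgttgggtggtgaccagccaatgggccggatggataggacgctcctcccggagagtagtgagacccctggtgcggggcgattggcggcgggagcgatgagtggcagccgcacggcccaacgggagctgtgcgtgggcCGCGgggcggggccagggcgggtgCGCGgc
CAMTA1 start at 895 kb, 250 bases, plus strand, chr1:7679838-7680087: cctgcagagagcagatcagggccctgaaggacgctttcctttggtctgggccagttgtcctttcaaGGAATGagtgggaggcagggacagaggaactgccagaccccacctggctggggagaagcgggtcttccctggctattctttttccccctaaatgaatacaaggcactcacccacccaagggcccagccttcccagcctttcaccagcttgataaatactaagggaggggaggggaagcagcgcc
CAMTA1 start at 919 kb, 230 bases, plus strand, chr1:7704486-7704715: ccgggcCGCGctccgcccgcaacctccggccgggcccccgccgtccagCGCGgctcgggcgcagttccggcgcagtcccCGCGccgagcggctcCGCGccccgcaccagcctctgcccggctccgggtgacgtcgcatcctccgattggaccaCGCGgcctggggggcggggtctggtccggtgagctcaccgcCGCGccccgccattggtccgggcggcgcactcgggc
WWTR1 start 45.2 kb upstream of the main one, 195 bases, minus strand, chr3:149703329-149703523: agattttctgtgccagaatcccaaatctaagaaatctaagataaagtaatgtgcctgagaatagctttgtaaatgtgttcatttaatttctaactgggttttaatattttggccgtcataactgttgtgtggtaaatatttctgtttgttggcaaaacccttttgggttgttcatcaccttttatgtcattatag
The 250 bases before the start at 919 kb held 7 CGCG matches, those before each main start held 2, and those before the other starts of both genes held none, with overlapping matches counted apart. GGAATG occurred before 1 start, at 895 kb, and CACGTG before none. Among the 250-base stretches before all 35116 RefSeq starts, 46.4% held CGCG, 11.9% GGAATG and 6.34% CACGTG. These matches are descriptions of letters and not sites of binding.

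At WWTR1 the number of peaks ran from 30 in the TAZ4SA list through 44 in EV, 50 in TFE3, 51 in YAP5SA, 56 in CAMTA1 and 70 in YT to 71 in TC. Peaks covered 4.45% of the window in the TAZ4SA list, 6.36% in EV and 13.5% in TC. The covered length was thus 2.12 times that of EV in the TC list and 0.699 times in the TAZ4SA list, where the whole lists stood at 1.61 and 0.748 times. An excess over the whole-list ratio also occurred in lists without WWTR1 sequence. The ratios were 1.38 against 1.03 in TFE3, 1.82 against 1.39 in CAMTA1 and 1.88 against 1.48 in YT. In YAP5SA the ratio at WWTR1 was slightly below that of its whole list. The excess in TC was therefore not particular to a list with WWTR1 sequence. In peaks and covered length, the 2 lists whose vectors carry WWTR1 sequence were the lowest and the highest of the 7 at this gene. TAZ4SA and TC were so too in the length covered over the whole genome.

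At CAMTA1 there were 70 peaks in the TAZ4SA list, 99 in TFE3, 117 in EV, 121 in YAP5SA, 134 in YT, 171 in TC and 176 in CAMTA1. The lists of the 2 vectors with CAMTA1 sequence had the most peaks. With the lists trimmed to equal numbers of peaks they had 112 each, still the most, but EV then followed with 105. In covered length the CAMTA1 list had 1.48 times as much as EV, against 1.39 times over the whole list, and the TC list 1.75 times, against 1.61 times. In numbers of peaks the TC list had 1.46 times as many as EV, against 1.38 times over the whole list. YT, with 1.38 times as many peaks as EV in its whole list, had 1.15 times at CAMTA1, and YAP5SA, with 1.35 times in its whole list, had 1.03 times. The ratios of TAZ4SA and TFE3 were also lower at CAMTA1 than over their whole lists. Without replicate lists, the excess of the 2 carrier lists over their own whole-list ratios could not be set against an error.

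**Figure D1:**
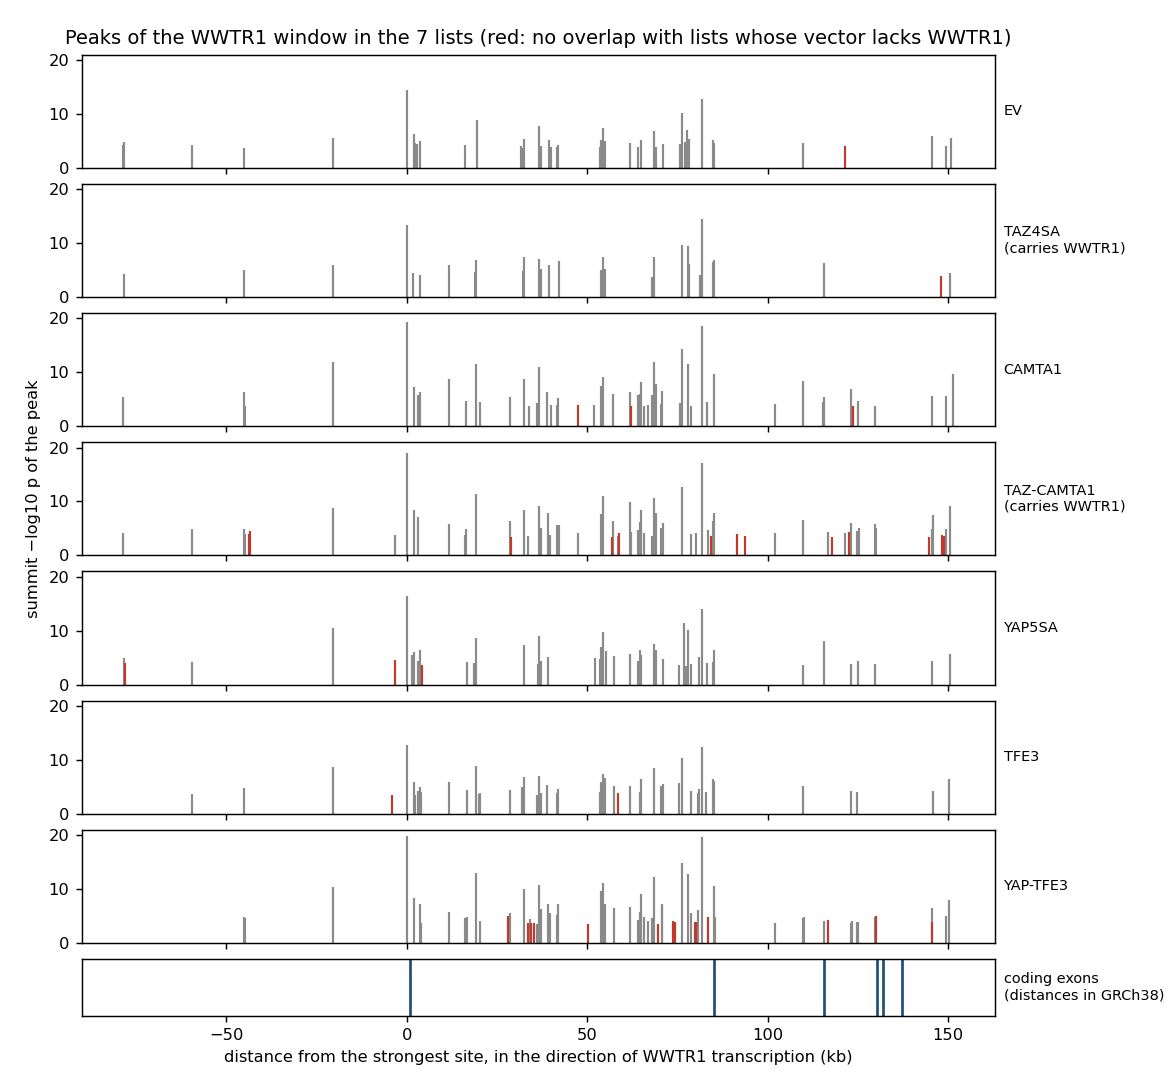
Each vertical line is 1 peak of the WWTR1 window, at its summit's distance in kb from the strongest site (horizontal axis) and with the height of its summit −log10 p (vertical axis), for the 7 lists, and red lines are peaks that overlapped no peak of the compared lists without WWTR1 in the vector. Red lines are low throughout, with 1 in the TAZ4SA list, 13 in TC and 15 in YT, whose vector lacks WWTR1, while the tallest lines stand at the same distances in all 7 lists.

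Peaks found only in the carriers, the lists whose vector holds sequence of the gene, were sought among the strong peaks first. A peak was called strong when its summit −log10 p reached the 75th percentile of its own list, which was 6.42 in TAZ4SA, 7.01 in CAMTA1 and 6.87 in TC, and it was counted when it overlapped by 1 bp or more no peak of the 5 lists whose vectors lack the gene. No peak met both conditions at WWTR1, in the TAZ4SA list or in TC. None met them at CAMTA1, in the CAMTA1 list or in TC. Such peaks were almost absent from the whole lists too: 0.00982% of TAZ4SA peaks and 0.00127% of TC peaks when WWTR1 carriers were set apart, and 0.000894% of CAMTA1 peaks and 0.00211% of TC peaks when CAMTA1 carriers were. The counts of 0 in windows of 30 to 176 peaks therefore say little about these 2 genes in particular. Among the lists whose vectors lack the gene, counted in the same way against the remaining 4, 1 strong peak was found, in the YAP5SA list at CAMTA1.

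Weak peaks of this kind did occur, and they are called carrier-specific below, or list-specific in a list that was set against the remaining 4. With no minimum strength, 1 of the 30 TAZ4SA peaks at WWTR1 overlapped none of the 5 lists (3.33%, against 12.9% of all TAZ4SA peaks), and so did 13 of the 71 TC peaks (18.3%, against 15.1% of all TC peaks). The lone TAZ4SA peak, chr3:149227768-149227955, had a summit −log10 p of 3.92 and an area of 40.5, where the 75th percentile of area in that list was 353. The 13 TC peaks ran from 3.37 to 4.58 in summit −log10 p, all under the list's median of 4.69, and the strongest of them was chr3:149419151-149419289. YT, whose vector holds no WWTR1 sequence and which was not set against TAZ4SA and TC, had 15 such peaks among 70 (21.4%, against 19.9% of all YT peaks). The shares of TC and YT were thus near those of their whole lists, and that of TAZ4SA was below. Set against all other lists, TC alone held 13 sites at WWTR1, YT alone 9, and TAZ4SA alone 1. The share of such sites over the genome was not computed for each list. The whole lists held 236893 (TC), 235795 (YT) and 152702 (TAZ4SA) peaks, so these counts show no trait of WWTR1.

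At CAMTA1, 43 of the 176 CAMTA1 peaks (24.4%, against 13.7% of that whole list) and 47 of the 171 TC peaks (27.5%, against 18.2%) overlapped none of the 5 lists without CAMTA1 sequence. In the 5 other lists the share was 13.7% in EV, against 11.7% of that whole list, and below the whole list's share in the other four: 12.9% in TAZ4SA against 14.1%, 19.8% in YAP5SA against 23.2%, 0% in TFE3 against 3.47% and 19.4% in YT against 26.3%. Both carrier lists stood above their whole-list share and by more than EV did. The comparison is uneven, since carriers were set against 5 lists and the others against 4, which by itself leaves a carrier fewer list-specific peaks. The 43 and 47 peaks were narrow, with median widths of 92 and 98 bp, and weak, reaching at most 4.90 and 4.73 in summit −log10 p.

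**Figure D2:**
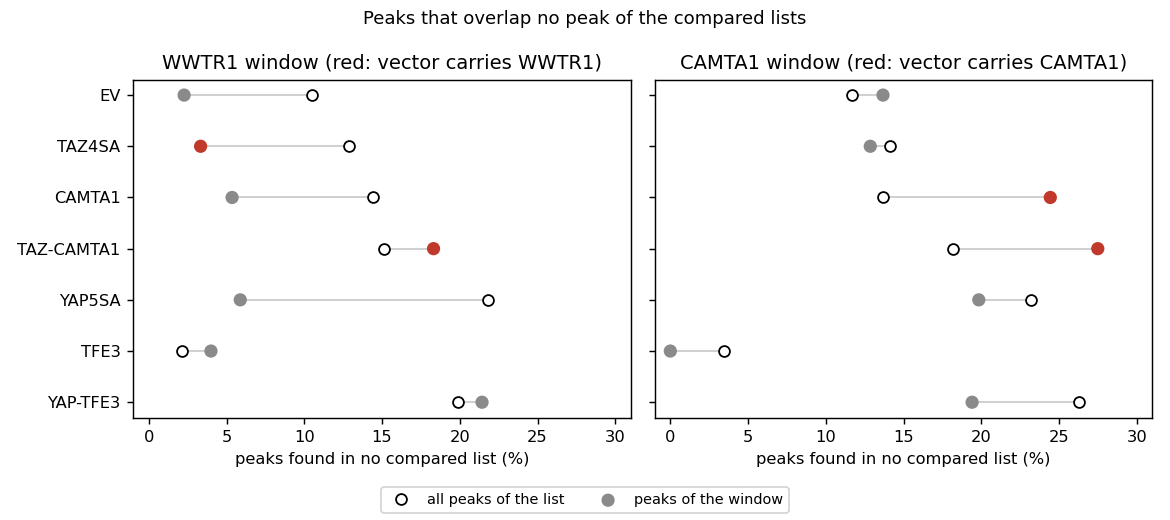
For each list (vertical axis), filled points give the percentage of its peaks in the window that overlapped no compared list, and open points the same percentage over the whole list, with WWTR1 on the left and CAMTA1 on the right. Red filled points are lists whose vector carries the gene: at CAMTA1 both lie to the right of their open points (24.4% and 27.5%), and at WWTR1 1 of them, TAZ4SA, lies to the left (3.33%).

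Positions along the genes were then compared with the exons. The reference annotation at hand is of another build, GRCh38, so no coordinate was carried over. Distances were used instead, from the strongest site of the window to a peak in hg19, and from the main annotated start to an exon or another start in GENCODE v44 or RefSeq. Peaks within 1 kb of such a distance were taken as matching, and the sequence between was not compared between builds. The annotated starts were looked up in the same way, and by that rule a matching summit lies within 1 kb. At CAMTA1, annotated starts lay 884.3, 894.6 and 919.3 kb from the main one, and all 7 lists had a peak near each. The median summits were at 884.6, 895.2 and 919.6 kb. The neighbouring gene VAMP3 starts 985.8 kb from the main CAMTA1 start in the annotation. The matching peaks of all 7 lists had their median summit at 986.3 kb. At WWTR1, a start annotated 45.2 kb upstream was matched by peaks of 6 lists, all but YAP5SA.

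The main WWTR1 transcript (gene ENSG00000018408.15) has 6 coding exons of 113 to 431 bp, 1200 coding bases in all. At the first exon all 7 lists had a peak, which was the strongest site itself. At the second, which ends 85.2 kb downstream, all 7 lists again had a peak. For the peak with its summit nearest the exon, the summit −log10 p was 4.66 in EV, 6.85 in TAZ4SA, 9.70 in CAMTA1, 7.87 in TC, 6.42 in YAP5SA, 6.06 in TFE3 and 10.6 in YT. The 2 carriers lay inside the range of the other 5 lists. At the distances of the fifth exon and the sixth exon no list had a peak, that of TAZ4SA, whose vector holds the whole coding sequence, included. In the fusion gene WWTR1 is broken after the second or the third exon and CAMTA1 at the ninth. That numbering was not matched to the coding exons here, and the TC vector is not known to hold the last WWTR1 exons, so its lack of peaks there shows nothing. At the fourth exon CAMTA1, TC, YAP5SA and YT had peaks, and EV, TAZ4SA and TFE3 had none. Only 1 carrier-specific peak lay near a coding exon, a TC peak of 126 bp beside the second (chr3:149291508-149291633, summit −log10 p 3.67). YT, without WWTR1 sequence in its vector, had 2 list-specific peaks near coding exons.

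At the third WWTR1 coding exon, 115 to 116 kb downstream, a site at chr3:149260046-149260868 differed between lists. It was picked out after its values were seen. The area of its largest peak was 896 in YAP5SA and 427 in TAZ4SA, the 2 activated paralogs. It was 215 in CAMTA1 and 58.0 in YT. EV, TC and TFE3 had no peak there. The site thus occurred in the TAZ4SA list and was largest in a list without WWTR1 sequence in the vector. The TC vector is not known to hold this exon, so the lack of a TC peak there shows nothing.

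The main CAMTA1 transcript (gene ENSG00000171735.21) has 23 coding exons with 5019 coding bases. Of the 23, 17 had no peak of any list at their distance, 2 had peaks of all 7 lists, and 3 had carrier-specific peaks. The longest exon by far is the ninth, with 1847 bp, which lies 877.9 to 879.7 kb from the main start. At that distance the CAMTA1 and TC lists had 5 peaks in all, within 1034 bp (chr1:7723651-7724684), and the other 5 lists had none. In the TC list these were chr1:7723651-7724332, 682 bp wide with an area of 220 and a summit −log10 p of 4.57, and chr1:7724523-7724684, with an area of 25.4 and 3.49. In the CAMTA1 list they were chr1:7724117-7724224, chr1:7724330-7724452 and chr1:7724584-7724683, with areas of 20.9, 36.9 and 34.9 and summit −log10 p values of 3.43, 3.73 and 3.59. By summit all 5 were weak: the widest one stood at the 47.3rd percentile of its list and the others at the 12.4th or below. By area the widest one stood at the 58.5th percentile and the others at the 16.2nd or below.

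The nearest peak of any list without CAMTA1 sequence was 7511 bp before this group of peaks and 2615 bp after it. By distance the group ran from 878.536 to 879.569 kb, and the ninth exon from 877.899 to 879.745 kb. The median summits from 884.6 to 986.3 kb lay beyond their annotated starts, and only summits within 1 kb had been counted as matching. At this precision, a place wholly within the exon is not certain. The TC peak of 682 bp was the widest of the 47 carrier-specific TC peaks in the window, and over the genome 0.0558% of 42998 such TC peaks were as wide. That share is of single peaks, so it does not measure how rare the widest of 47 is. Peaks of both carriers fell in it, TC with 844 covered bases and CAMTA1 with 331. The group was noticed after the values were seen, and its assignment to the exon rests on distances in 2 builds.

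**Figure D3:**
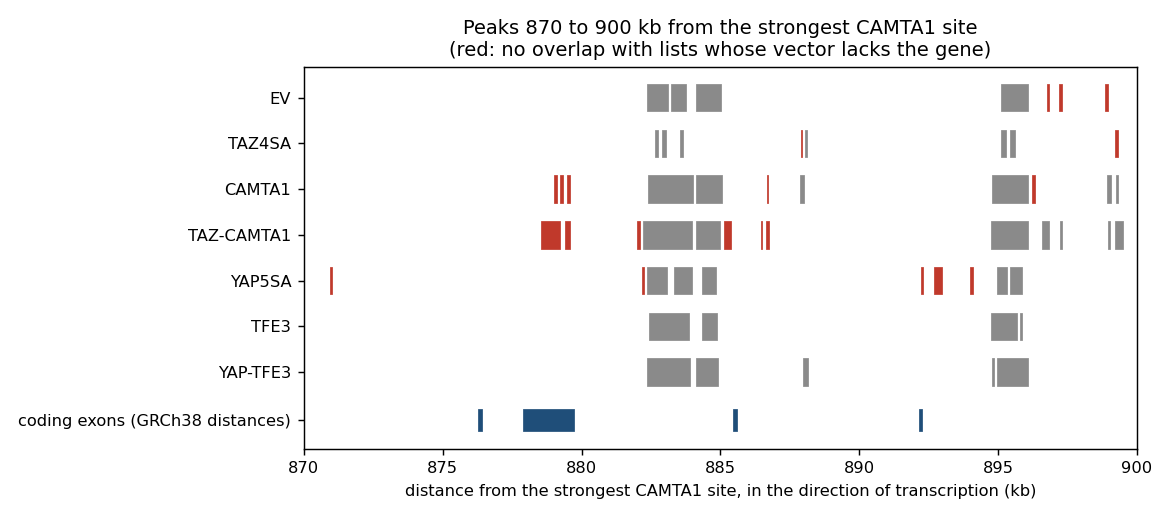
Boxes show the peaks of the 7 lists (rows) around the distance of the ninth coding exon, by their distance from the strongest CAMTA1 site (horizontal axis, kb), drawn to their width, with coding exons by their GRCh38 distances in the bottom row. Red boxes overlapped no compared list without CAMTA1 in the vector. The 5 red boxes of the CAMTA1 and TAZ-CAMTA1 rows between 878.5 and 879.6 kb fall, by these distances, within the ninth exon.

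At the distance of the eleventh exon YAP5SA, whose vector lacks CAMTA1, had 2 list-specific peaks, chr1:7737337-7737426 and chr1:7737821-7738110, with summit −log10 p values of 3.68 and 4.28, and no other list had a peak. Unlike the group at the ninth exon, these peaks came from 1 list and the exon is short, at 135 bp. It ends at 892.279 kb by distance, and the 2 summits lay at 892.264 and 892.779 kb. At the fourth exon, peaks of CAMTA1 and TC alone came within 1 kb, but they belong to a site that a YT peak overlaps too, so they were not carrier-specific. At the tenth exon TC had 2 carrier-specific peaks beside a site of several lists, and at the twenty-first TC had 1, chr1:7812557-7812643, close to a list-specific YAP5SA peak. At the 524-bp exon, the sixteenth and second in length, no list had a peak. Taking all 23 exons with 1 kb on either side, 4.28% of the window, 3 of the 43 carrier-specific CAMTA1 peaks and 5 of the 47 in TC lay near coding exons, as did 3 of the 24 list-specific peaks in YAP5SA, whose vector lacks the gene. Away from the coding exons the list-specific shares were 23.8% in the CAMTA1 list and 25.9% in TC, close to the shares over the whole window. Of the peaks near coding exons, 3 of 8 were list-specific in CAMTA1, 5 of 9 in TC and 3 of 6 in YAP5SA. In EV, TAZ4SA, TFE3 and YT none of the few peaks there was. Most carrier-specific peaks lay away from coding exons, as does most of the window.

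TC has the carboxy-terminal part of CAMTA1 and full-length CAMTA1 all of it, so peaks were also counted before the group at the ninth exon and from it onward. The boundary was set at that group after it was seen. Before it, the list-specific peaks were 36 of 157 in CAMTA1 (22.9%), 37 of 148 in TC (25.0%), 17 of 102 in YAP5SA, 26 of 124 in YT, 13 of 107 in EV, 7 of 58 in TAZ4SA and 0 of 90 in TFE3. After it, with the 5 peaks of the group left out, they were 4 of 16 in CAMTA1 (25.0%), 8 of 21 in TC (38.1%), 7 of 19 in YAP5SA (36.8%), 3 of 10 in EV, 2 of 12 in TAZ4SA, 0 of 9 in TFE3 and 0 of 10 in YT. With the group counted in, the downstream shares were 36.8% in CAMTA1 and 43.5% in TC. The share was thus higher downstream in TC, and also in YAP5SA and EV, whose vectors lack the gene. At WWTR1, more than 50 kb downstream of the strongest site, where 5 of the 6 coding exons lie, 10 of 45 TC peaks were list-specific, against 1 of 15 in TAZ4SA and 11 of 44 in YT. YT, without WWTR1 sequence in its vector, had a share close to that of TC there.

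Overlapping peaks of the 7 lists were merged into sites to ask which lists share them. WWTR1 had 83 sites and none held by TAZ4SA and TC alone, where 0.258% of the 372133 sites of the genome were. CAMTA1 had 233 sites, of which 10 (4.29%) were held by CAMTA1 and TC alone, where 1.90% of all sites were. Among the 21 possible pairs of lists this was the most frequent in the CAMTA1 window, followed by TC with YT at 6 sites, a pair that was more frequent over the genome (11730 sites against 7060). Of the 10, 2 were the neighbouring sites at the ninth exon. The one with the highest summit in the CAMTA1 list was chr1:7711739-7711968, with summit −log10 p of 4.82 in CAMTA1 and 4.60 in TC and areas of 119 and 127, and it was not at the distance of a coding exon. Over the genome 8.29% of the 7060 sites of this pair had another one within 2 kb, and 4 of the 10 in the window did. Of these 4, 2 were the neighbouring sites at the ninth exon, which had already been picked out for their values. The contrast is therefore not independent of that choice.

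**Figure D4:**
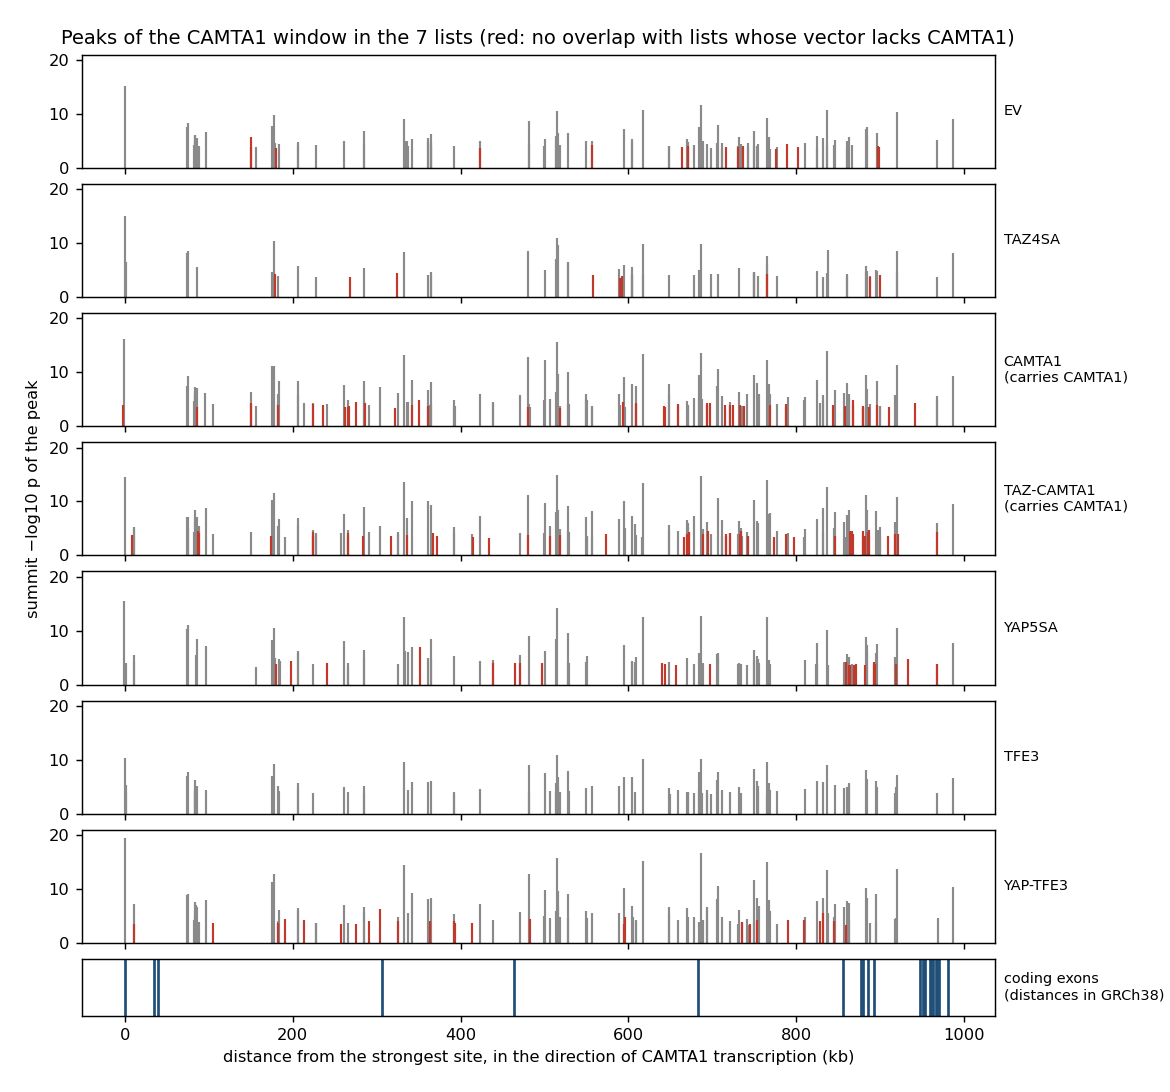
Each vertical line is 1 peak of the CAMTA1 window, at its summit's distance in kb from the strongest site (horizontal axis) and with the height of its summit −log10 p (vertical axis), for the 7 lists, with coding exons by their GRCh38 distances at the bottom. Red lines, which overlapped no compared list without CAMTA1 in the vector, are spread along the whole gene in the CAMTA1 (43) and TAZ-CAMTA1 (47) lists and are missing from TFE3 (0).

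Most strong peaks at both genes lay in sites that all 7 lists shared: 87 of 98 at WWTR1 (88.8%) and 175 of 216 at CAMTA1 (81.0%), counted over the lists. In sites of fewer than 6 lists there were 2 at WWTR1 and 11 at CAMTA1. The same shares of strong peaks were not computed over the whole lists, so they cannot be called particular to these genes. Sites with a peak in all 7 lists numbered 14 of 83 at WWTR1 (16.9%) and 34 of 233 at CAMTA1 (14.6%), against 16.2% over the genome. Sites in a single list were 31.3% and 41.6%, against 42.3%. Both loci were thus near the genome's share of common sites, and WWTR1 had fewer sites of a single list.

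At WWTR1 the strongest common site was chr3:149374036-149377217, at the distance of the main start. Its largest peak had an area of 11269 in EV, 9715 in TAZ4SA, 17905 in CAMTA1, 18578 in TC, 12779 in YAP5SA, 9192 in TFE3 and 21118 in YT. Areas scale with how much was sequenced and called, so each was also ranked within its own list, where all 7 fell between the 99.4th and 99.7th percentiles. In rank this site hardly differed between the lines. The second, chr3:149292573-149295419, 82 kb downstream, ranked between the 96.3rd and 97.8th percentiles, and the third, chr3:149297420-149300486, between the 91.4th and 96.8th.

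The fourth common site of WWTR1 and the fifth one varied more. At chr3:149355558-149357802 the area was 659 in TAZ4SA, 1835 in EV, 1923 in YAP5SA, 2220 in TFE3, 4145 in CAMTA1, 4470 in YT and 4921 in TC. At chr3:149320378-149321781 it was 424 in TAZ4SA, 494 in EV, 680 in TFE3, 1706 in YT, 1844 in CAMTA1, 1879 in YAP5SA and 2883 in TC. TAZ4SA was lowest and TC highest at both, and these are the 2 carriers of WWTR1 sequence. In percentiles the range was 82.2 to 93.2 at the fourth site, again from TAZ4SA to TC. At the fifth it was 76.5 to 89.5, with TFE3 lowest and TC highest.

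At CAMTA1 the strongest common site, chr1:6843984-6846748, at the distance of the main start, had an area of 9656 in EV, 7546 in TAZ4SA, 11453 in CAMTA1, 10819 in TC, 9142 in YAP5SA, 4474 in TFE3 and 14531 in YT. The percentiles were 95.7 in TFE3 and 98.0 to 99.1 in the other 6. The carriers CAMTA1 and TC, at 98.6 and 98.0, were inside the range of the lists without CAMTA1 sequence. The second site, chr1:7528999-7533652, lay between the 95.8th and 98.4th percentiles, the third, chr1:7358784-7362014, between the 94.4th in EV and the 98.8th in YAP5SA, the fourth, chr1:7021897-7024131, between the 91.4th and 94.4th, and the fifth, chr1:7680819-7682926, between the 90.1st and 94.9th.

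**Figure D5:**
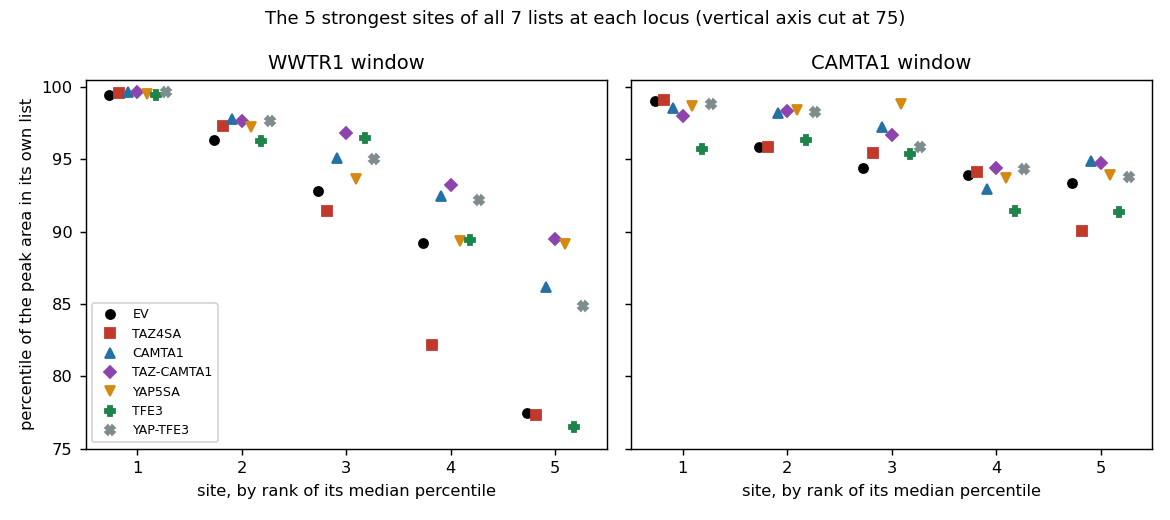
Points give, for the 5 strongest sites with a peak in all 7 lists at WWTR1 (left) and CAMTA1 (right), the percentile of the largest peak's area within its own list (vertical axis, starting at 75), with sites in order of their median (horizontal axis) and 1 symbol per list. The lists differ little at the first site of WWTR1 (99.4 to 99.7) and most at the fifth (76.5 to 89.5).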

How the data were processed

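ATAC-seq was done on 20 SW872 libraries, and the deposited data used here are 7 narrowPeak lists, 1 per line. Per the study's methods, the authors trimmed adapters with NGmerge, aligned reads to hg19 with BWA-MEM and called peaks with Genrich in ATAC mode after removing duplicates, mitochondrial reads and blacklisted regions; the methods describe calling on each replicate, and how libraries entered 1 list is not given in the sources used here. The submitters' processing notes instead name Bowtie 0.12.2 and mm8, which could not be matched to lists with human chromosome 22. In the deposited lists, the signal column is the area under the peak, the score column its rounded mean per base (capped at 1000, not used), and further columns the −log10 p and −log10 q at the summit, of which the −log10 p was used.

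Windows, overlaps (at least 1 bp) and merged sites were computed in Python 3 with pandas, on code tested on simulated peaks. Peaks named were all carrier-specific strong peaks, the 5 common sites per locus with the highest median percentile, and others said to be chosen after their values were seen, among them the strongest weak peaks and the peaks at the exons; the rest were counted. The members and lists were chosen with earlier results of these data known. Samples were grouped by their titles. With 1 list per line there were no tests, intervals or limits. No hg19 genome or annotation was used here. Alternatives covered strength, overlap, width, comparison lists and list size.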

Additional observations from a re-analysis of the deposited data

How the results depend on the processing

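No paired analysis was possible because each line has 1 list with no values per library, so neither a replicate block nor leaving out a library was run. The count of 0 strong carrier-specific peaks was the same under the 90th percentile of summit −log10 p, the 75th percentile of area, a width of at most 1000 bp, 250-bp windows to each side of the summit, comparison peaks with −log10 p of at least 4 and equal numbers of peaks, in all 4 pairs of carrier and locus. With no strength filter it became 1 (TAZ4SA) and 13 (TC) at WWTR1 and 43 (CAMTA1) and 47 (TC) at CAMTA1. With strength set at the median it became 2 (CAMTA1) and 1 (TC) at CAMTA1. With an overlap of 50% of both peaks it became 1 (TAZ4SA) and 1 (TC) at WWTR1 and 6 (TC) at CAMTA1. Against the EV list alone it became 2 (CAMTA1 list) at CAMTA1. The 1 strong list-specific YAP5SA peak at CAMTA1 was lost at the 90th percentile and with equal numbers of peaks. Peaks per locus moved by more than 1.5 times only with equal numbers of peaks, to 112 (CAMTA1), 112 (TC) and 72 (YAP5SA) at CAMTA1, where EV then had 105. Of EV's peaks, 4 at WWTR1 and 12 at CAMTA1 overlapped by 50% of both in every list, where 14 and 34 merged sites were common; with 1 bp, chosen after seeing the data, these were 19 and 39. The 5 strongest common sites were the same 5 by area as deposited at both loci.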

Other observations

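A pair of sites at CAMTA1, picked out after their values were seen, differed between lists without following the vectors that carry the gene. The only strong peak without a counterpart in the other lists was chr1:7196150-7196613 in the YAP5SA list, with an area of 645 and a summit −log10 p of 7.01, against that list's 75th percentile of 6.58. None of the other 6 lists had a peak there, both carriers included. With strength at the 90th percentile, or with equal numbers of peaks, no YAP5SA peak met the conditions at CAMTA1, and 4 did when only overlaps of 50% counted. Over the whole YAP5SA list 0.362% of peaks were strong and absent from the 4 compared lists.

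The site chr1:7149557-7149972 had a peak in the CAMTA1, TC and YT lists and in no other. The area was 764 in CAMTA1, 263 in TC and 369 in YT, and the summit −log10 p was 7.30, 5.46 and 6.38. It was shared by both fusions and CAMTA1. By distance, the ends of the CAMTA1 and TC peaks came within 1 kb of the fourth coding exon, and the YT peak, which overlaps them, did not.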
